A study of Mus musculus with 35 samples.

Results

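The genes described here encode the parts with which basal keratinocytes, the bottom cell layer of the epidermis, hold on to the dermis, and the integrins they use when they leave that position to close a wound. They are 9 of the 36106 genes in the deposited table: Itga6, Itgb4, Col17a1 and Dst of the hemidesmosome, Lama3 and Lamb3 of laminin-332, Col7a1 of the anchoring fibril, and Itga5 and Itgb6 of migrating keratinocytes. They were chosen by symbol. All 9 had at least 216 estimated counts in each of the 35 libraries and passed the filter on low counts in every comparison below.

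The libraries were bulk RNA sequencing of skin from 19 female C57BL/6J mice, an inbred strain, aged 10 weeks at the start. In 16 of those mice the left flank received 25 Gy at 3.6 Gy per min for 420 seconds, with an electric razor used on that skin afterwards. Radiated skin of weeks 1, 2, 3 and 4 after radiation gave 4 libraries a week, and control skin of the same weeks gave another 4 a week. Sham mice, which had no radiation, gave 3 libraries. Each week used different mice. Radiated and control samples carry the same numbers within a week, and with 35 samples from 19 mice each such pair was taken to be 1 mouse. The body site of the control skin is not stated, so control skin here is the skin labelled control in the weeks after radiation, and only sham skin came from mice without radiation. The p-values of the main tests measure the spread between mice within a group. Those tests take the 2 samples of a pair as independent. Fits with the replicate number as a block, given as alternatives, use the pairing.

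Hemidesmosomes are plaques on the basal face of the basal keratinocyte. Integrin α6β4 (Itga6 and Itgb4) and collagen XVII (Col17a1) cross the membrane and bind laminin-332 in the basement membrane, while the plakins dystonin (Dst) and plectin tie them to keratin filaments inside the cell. Laminin-332 holds the chains encoded by Lama3 and Lamb3, and collagen VII (Col7a1) forms the fibrils that fasten the basement membrane to the dermis. Inherited loss of any of these parts gives blistering skin. In healing wounds keratinocytes take their hemidesmosomes apart, lay down fresh laminin-332 and use integrin α5β1 (Itga5), a fibronectin receptor, and αvβ6 (Itgb6), which binds fibronectin and tenascin and activates TGF-β.

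In brief, Col17a1 and Dst fell in radiated against control skin in weeks 3 and 4. The Dst call of week 3 was lost when libraries were scaled by total count. Neither gene passed against sham skin in those weeks. Of the genes of α6β4, the binding partner of both, Itga6 fell in week 3, a call that most alternatives lost. In week 4 neither Itga6 nor Itgb4 passed the test. Itga5 rose in weeks 3 and 4. Lama3 and Col7a1 rose in week 4, and Lamb3 did not pass. Itgb6 rose in week 4 against a control group that had its lowest mean of all 9 groups, and lay near its sham level.

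The stretches before the transcription starts of Col17a1, Dst and Itga5 are shown because the first pair moved together and the third moved the other way in the same libraries. They come from RefSeq on GRCm38.p6, where 6 of the 9 genes had an entry, with 9 start sites between them. Each is written 5′ to 3′ on the transcribed strand and ends at the start site, or where the first GENCODE M21 exon begins. Capitals mark matches on either strand to 4 motifs: TGANTCA bound by AP-1, GGGCGG bound by Sp1, CCAAT bound by NF-Y, and TATAAA of the core promoter. No 2 of these matches overlapped. The Col17a1 stretch is chr19:47692095-47692292 on the minus strand. The Dst stretches are chr1:34011345-34011594 and chr1:34160010-34160259, both on the plus strand, and that of Itga5 is chr15:103366792-103367041 on the minus strand.
Col17a1: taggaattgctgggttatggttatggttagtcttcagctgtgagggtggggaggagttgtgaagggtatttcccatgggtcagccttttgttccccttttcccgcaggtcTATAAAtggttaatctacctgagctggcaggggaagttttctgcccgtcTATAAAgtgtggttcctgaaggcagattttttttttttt
Dst, first start: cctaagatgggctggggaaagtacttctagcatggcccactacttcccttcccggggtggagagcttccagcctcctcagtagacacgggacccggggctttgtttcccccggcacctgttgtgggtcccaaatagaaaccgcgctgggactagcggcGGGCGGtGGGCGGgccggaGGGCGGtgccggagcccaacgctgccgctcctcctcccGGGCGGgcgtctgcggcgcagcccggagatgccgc
Dst, second start: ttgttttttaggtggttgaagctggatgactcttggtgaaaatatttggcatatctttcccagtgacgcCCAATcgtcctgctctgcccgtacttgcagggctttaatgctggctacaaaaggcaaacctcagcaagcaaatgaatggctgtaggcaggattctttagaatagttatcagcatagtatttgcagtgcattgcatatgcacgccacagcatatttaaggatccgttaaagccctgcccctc
Itga5: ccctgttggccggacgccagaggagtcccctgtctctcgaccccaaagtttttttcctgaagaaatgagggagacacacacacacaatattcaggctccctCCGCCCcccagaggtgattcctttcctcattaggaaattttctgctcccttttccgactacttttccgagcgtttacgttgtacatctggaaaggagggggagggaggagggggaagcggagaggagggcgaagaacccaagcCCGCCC

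All of these stretches lie outside annotated exons. Among the 250-base windows before 32851 start sites, 32.7% held GGGCGG, 33.8% CCAAT, 12.4% TATAAA and 6.75% TGANTCA. Col17a1 held TATAAA beginning 140 and 91 bases upstream of its start, and CCAAT on the other strand 31 bases upstream, in the part not printed. The first Dst start held GGGCGG 4 times, beginning 92, 85, 73 and 35 bases upstream. The second Dst start, with 45.2% G and C against 68.8% at the first, held only a CCAAT at 181 bases upstream. Itga5 held GGGCGG on the other strand beginning 149 and 6 bases upstream. TGANTCA was in none of the 4 windows, and no match was shared by all of them. The gene Dst spans chr1:33908225-34308661 and has 20 annotated transcripts, 14 of them protein-coding. It makes different proteins in epidermis, nerve and muscle, and the deposited table gives 1 value for the gene, so transcripts from the 2 starts cannot be told apart here.

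Levels are given as CPM, the estimated counts scaled to a library total of 1000000 after TMM normalisation, in replicate order 1 to 4 (1 to 3 for sham). They are not divided by gene length, so they compare libraries, not genes. Total counts ran from 17362853 to 28487885 per library. Fold changes are log2 values with their standard error (SE) from edgeR's quasi-likelihood test, and "passed" means a Benjamini-Hochberg adjusted p under 0.05 over all genes tested in that comparison.

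The libraries were skin by their markers: the summed level of 5 basal keratinocyte markers lay between 5297 and 15190 CPM. Other cell types moved with radiation. The summed fibroblast markers were 18280 to 31070 CPM in radiated and 1805 to 3418 in control skin of week 4, and the leukocyte and macrophage markers 772 to 1199 against 157 to 198. Skeletal muscle markers were 10030 against 25260 CPM in week 4 on average, and 32540 against 64290 in week 1. The 5 suprabasal markers summed to 844 to 4759 CPM in radiated and 11400 to 12700 in control skin of week 4, and the 4 markers of activated keratinocytes to 10050 to 13400 against 494 to 553. In week 3, radiated replicate 4 stood apart with 9967 CPM of suprabasal markers, where the lowest library of its group had 290. Hair follicle matrix and sheath markers had their highest mean in sham skin, at 771, 7513 and 8510 CPM. They summed to 7.56 to 10.1 CPM in control skin of week 4 and 5.24 to 11.6 in radiated skin of week 2, with 6 of 6 lower than sham by the test in both. In week 4 they were at 118, 6.91, 2258 and 26.0 CPM in radiated skin, and 4 of the 6 were higher than in control skin by the test. Of 5 adipocyte and 5 pericyte and smooth muscle markers, 1 of each was lower in week 3, and 0 and 2 were lower and 0 and 1 higher in week 4. In week 2 no marker of any list passed in the unpaired fit, while with the replicate block 5 of 5 leukocyte and 2 of 6 fibroblast markers were higher, and 4 of 5 skeletal muscle and 1 of 5 basal markers lower. No marker of these lists was at 0 in any group. Their part in the results below was not tested, and in bulk skin fewer cells of a type and less RNA per cell cannot be told apart.

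The basal markers themselves parted. Krt14 rose in radiated skin, by 1.61 (SE 0.35, edgeR adjusted p = 0.00994) in week 3 and 2.03 (SE 0.12, adjusted p = 3.4e-06) in week 4. Krt5, its keratin partner, fell by 0.83 in week 4 (SE 0.13, edgeR adjusted p = 0.000541). Krt15 fell by 2.89 and 4.48 in weeks 3 and 4 (edgeR adjusted p = 0.0336 and 0.000841), and Trp63, the master regulator of basal keratinocytes, by 1.61 and 1.37 (edgeR adjusted p = 0.0053 and 1.93e-05). The direction of several members relative to basal markers therefore turned with the reference. The mean of 5 markers includes Krt15, whose fall of 4.48 in week 4 lowers that mean, and the reference of Krt5 and Krt14 does not. In week 4 Itgb4 was 0.90 above control on the log2 scale when the mean of 5 basal markers was the reference, and 0.71 below it with Krt5 and Krt14 alone. In that week Itga5 stayed above control with both references (3.56 and 1.94) and Col17a1 below (-0.55 and -2.16), and with 5 markers the radiated and control values of Col17a1 overlapped. Relative to 5 markers Dst differed from control by 0.24 in week 3 and -0.04 in week 4, with overlap in both weeks. With Krt5 and Krt14 it was -1.12, again with overlap, and -1.66 without. Over all 36 pairs of member and week the sign turned with the reference in 19.

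**Figure D1:**
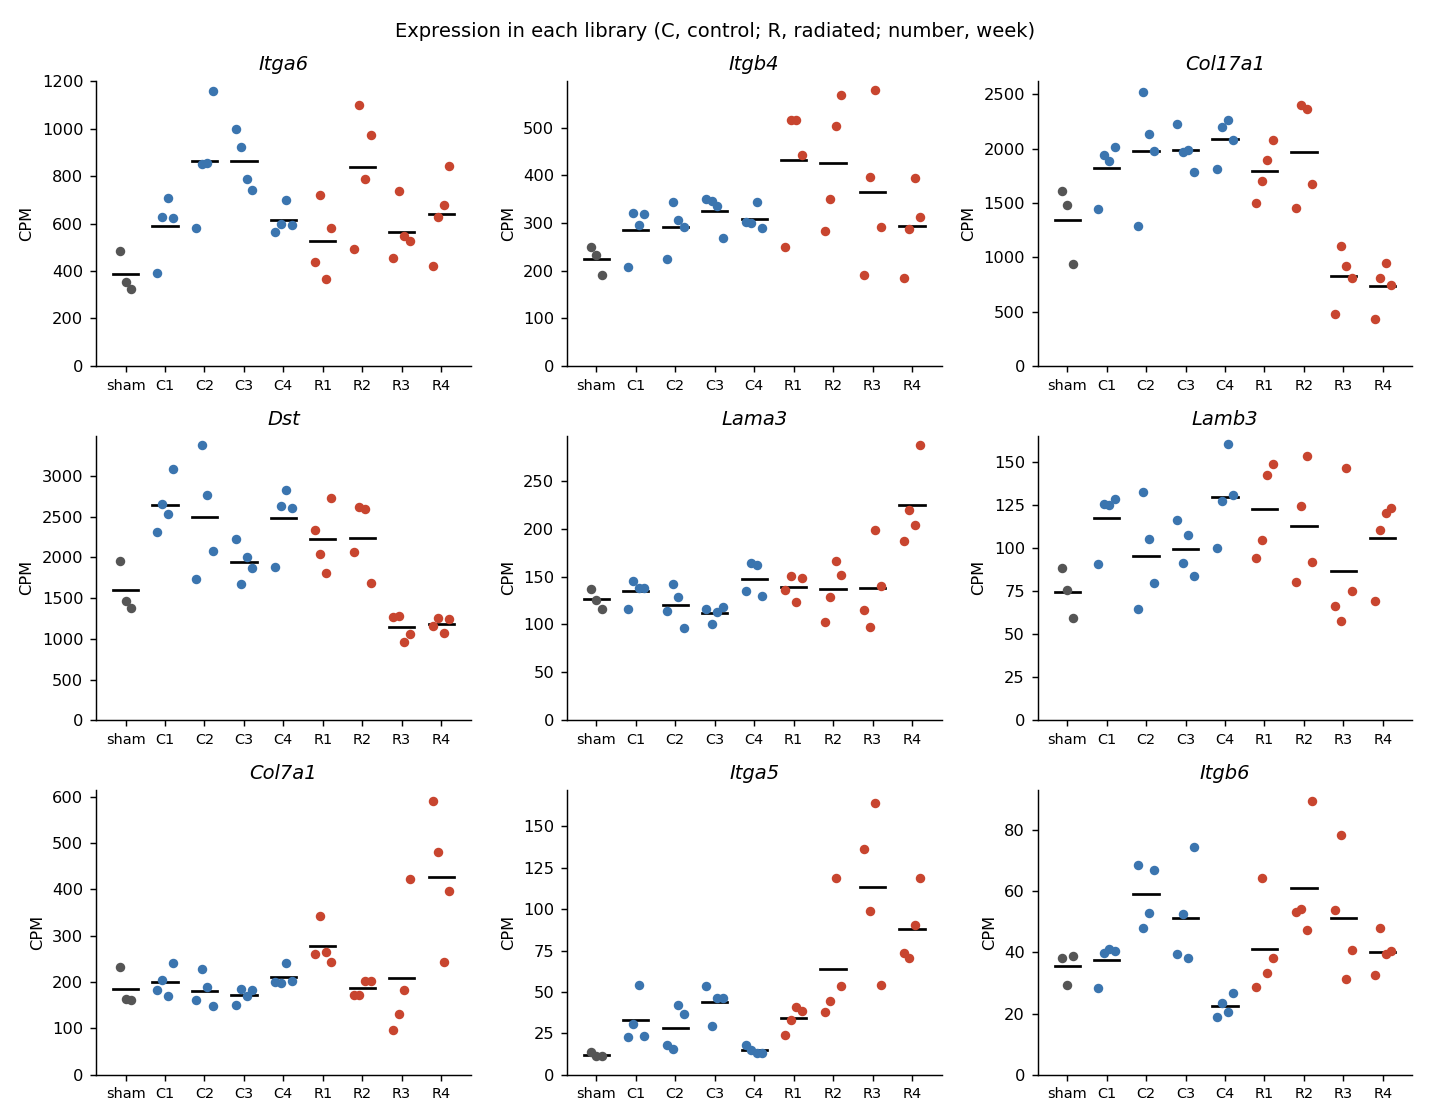
Level of each of the 9 genes in each library in CPM (linear axis from 0), by group, with sham in grey, control skin (C) in blue and radiated skin (R) in red by week, points for libraries and bars for group means. Col17a1 and Dst drop in R3 and R4 below every control library of those weeks, Itga5 is highest in R3, and Itgb6 is lowest in C4.

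Col17a1, the transmembrane collagen of the hemidesmosome, was the member that fell most. In week 3 its level was 480, 1101, 915 and 812 CPM in radiated skin and 2223, 1972, 1984 and 1787 CPM in control skin. The groups did not overlap, and the highest radiated library was well under the lowest control library. The difference was -1.24 on the log2 scale (SE 0.24, edgeR adjusted p = 0.00591), a 2.36-fold lower level. In week 3, 4 of the 9 members passed, 3 of them lower, where 27.2% of all genes tested passed and 13.6% were lower. Over all genes 2408 were higher and 2397 lower in week 3, and with scaling by total count, which moved the median of all genes by 0.24 in week 3 and 0.14 in week 1, these were 4054 and 1270.

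In week 4 Col17a1 was at 429, 810, 947 and 741 CPM in radiated skin and 1813, 2200, 2261 and 2079 CPM in control skin. Again every radiated library was below every control library. The difference was -1.51 (SE 0.21, edgeR adjusted p = 0.000288), or 2.84-fold lower. In that week 6 of 9 members passed, 2 lower and 4 higher, where 48.4% of all genes passed, 24.2% lower and 24.2% higher. Both Col17a1 calls held in each fit that left out 1 library, with adjusted p up to 0.0195 in week 3 and 0.00154 in week 4.

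Before week 3 no difference of Col17a1 passed. In week 1 it was at 1498, 1701, 1895 and 2082 CPM in radiated and 1442, 1938, 1887 and 2019 in control skin. In week 2 the radiated libraries had 1449, 2403, 2362 and 1678 CPM and the control libraries 1292, 2518, 2135 and 1976. Both weeks overlapped fully, with differences of -0.02 (SE 0.17) and -0.01 (SE 0.25). None of the 9 members passed in week 1 or week 2 in the unpaired edgeR fit or with DESeq2. In those weeks 0% and 0.00577% of genes passed with edgeR, with 2477 and 2388 genes at an unadjusted p under 0.05. With DESeq2 2.54% and 3.96% of genes passed. Week 2 depended on the pairing: with the replicate number as a block 641 genes passed (494 higher and 147 lower), or 3.7%, and 1 of the 9 members did, Itga5. With the block 21.1% and 42.7% of genes passed in weeks 3 and 4, and no member in week 1.

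The change over time was tested directly. The radiated-minus-control difference of Col17a1 changed over the 4 weeks (edgeR F test of the interaction of week and radiation, adjusted p = 0.00118), and the step from week 2 to week 3 was -1.24 (SE 0.32, edgeR adjusted p = 0.02). Over all genes, 15.6% passed the F test and 6.9% passed that step. That fit takes the 32 libraries as independent. With the mouse as a block the F test gave an adjusted p of 0.000681 and the step was -1.30 (SE 0.25, edgeR adjusted p = 0.00791). Without replicate number 2, 3 or 4 the step no longer passed, while the F test did. Among members, 3 of 9 passed the F test and 1 of 9 the step from week 2 to 3.

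Ordered by mean, Col17a1 was lowest in radiated week 4 (732 ± 219 CPM, SD, n = 4) and radiated week 3 (827 ± 261, n = 4), followed by sham (1343 ± 354, n = 3). Sham lay at 1608, 1480 and 942 CPM, so the lowest sham library was within the range of both radiated weeks. Against sham, radiated week 3 differed by -0.66 (SE 0.32, edgeR adjusted p = 0.183) and week 4 by -0.83 (SE 0.29, adjusted p = 0.0648), and neither passed. Without sham replicate 3 the week 4 difference was -1.04 and passed (edgeR adjusted p = 0.036). The other 6 group means lay between 1794 and 2088 CPM, and most of these were not tested against each other. The control means of weeks 3 and 4 were above sham by 0.56 and 0.63 (edgeR adjusted p = 0.102 and 0.114), so the distance from control was larger than that from sham.

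Dst, the plakin that links collagen XVII and β4 to keratin in epidermis, fell in the same weeks. In week 3 it was at 1268, 1280, 958 and 1064 CPM in radiated and 2220, 1671, 2007 and 1865 in control skin. In week 4 the values were 1155, 1250, 1073 and 1240 against 1885, 2635, 2820 and 2606. Neither week overlapped, and radiated week 4 was tight across the 4 mice. The differences were -0.74 (SE 0.17, edgeR adjusted p = 0.0113) and -1.07 (SE 0.13, adjusted p = 0.000129), or 1.67-fold and 2.10-fold lower. With scaling by total count the week 3 difference was -0.50 and did not pass (edgeR adjusted p = 0.0762).

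In the first 2 weeks Dst did not pass. Radiated week 1 had 2336, 2038, 1805 and 2723 CPM and its control 2308, 2659, 2527 and 3085 (-0.24, SE 0.18). Radiated week 2 had 2068, 2622, 2588 and 1684 CPM and its control 1733, 3373, 2769 and 2081 (-0.16, SE 0.25). The groups overlapped in both weeks. Over the 4 weeks the difference changed by the edgeR F test (adjusted p = 0.0318), a call that was lost without any 1 of the 4 replicate numbers (adjusted p 0.058 to 0.234) and without the filter on low counts (0.0542). Sham skin had 1958, 1466 and 1372 CPM. All radiated libraries of weeks 3 and 4 were below these 3, yet the differences of -0.44 (SE 0.22) and -0.39 (SE 0.17) did not pass (edgeR adjusted p = 0.207 and 0.122).

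Since Dst is also made by nerve and muscle, their markers are given beside it. Schwann cell markers averaged 163 CPM in radiated and 294 in control skin of week 3, and 144 against 253 in week 4, with 3 and 4 of the 5 markers lower by the test. Skeletal muscle markers averaged 17800 against 64730 CPM in week 3, with 4 of 5 lower by the test in week 3, 3 of 5 in week 4 and none in week 1. With the replicate block 4 of 5 skeletal muscle markers were lower in week 3 and 1 of 5 in week 4. The part of these cells in the fall of Dst was not tested.

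Itga6 and Itgb4, the 2 chains of the laminin-332 receptor in the hemidesmosome, did not pass in week 4. Itga6 was at 420, 627, 678 and 843 CPM in radiated skin of that week and 564, 600, 698 and 594 in control skin. Itgb4 was at 184, 287, 394 and 313 CPM against 302, 300, 345 and 289. The radiated libraries of both genes spread on either side of the controls. The differences were 0.07 (SE 0.18, edgeR adjusted p = 0.771) and -0.06 (SE 0.19, adjusted p = 0.805). With scaling by total count that of Itgb4 turned to 0.03.

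In week 3 Itga6 was at 455, 737, 548 and 528 CPM in radiated and 997, 925, 788 and 743 in control skin. The groups were apart by a narrow margin. The difference of -0.58 (SE 0.18) just passed (edgeR adjusted p = 0.0399). It did not pass with the replicate number as a block (-0.59, edgeR adjusted p = 0.0656), with scaling by total count (-0.34, adjusted p = 0.208), in 1 fit over all libraries (adjusted p = 0.0532), or in 7 of the 8 fits without 1 library, all but that without radiated replicate 2 (adjusted p 0.0536 to 0.107). Control week 3 was higher than sham in Itga6 (1.14, SE 0.18, edgeR adjusted p = 0.0109). Its mean (863.3 ± 118 CPM, SD, n = 4) was the highest in the study, nearly level with that of control week 2 (862.9 CPM). Sham had the lowest, at 485, 356 and 325 CPM. Control week 3 against sham was the only call for Itga6 among the 8 comparisons with sham.

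In weeks 1 and 2 Itga6 overlapped between radiated skin (437, 721, 365 and 581, then 495, 1101, 787 and 972 CPM) and control skin (390, 630, 707 and 626, then 583, 853, 856 and 1160 CPM). Itgb4 leaned the other way. It was at 251, 516, 517 and 443 CPM in radiated week 1 and 208, 321, 297 and 318 in its control. In week 2 it was at 284, 351, 504 and 568 against 225, 344, 306 and 292. The radiated member of each pair was the higher in 4 of 4 mice in both weeks, though the groups overlapped and the differences of 0.60 (SE 0.24) and 0.55 (SE 0.24) did not pass (edgeR adjusted p = 0.298 and 0.348). Week 3 was the most scattered, with 191, 396, 579 and 293 CPM against 350, 347, 336 and 270.

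Ratios of counts within a library do not depend on library scaling. These ratios were picked after the values were seen and are given with no test. The log2 ratio of Col17a1 to Itgb4 was 2.62 ± 0.10 (SD, n = 4) in control and 1.23 ± 0.39 in radiated skin of week 3, and 2.75 ± 0.13 against 1.31 ± 0.13 in week 4. All 19 control and sham libraries kept this ratio between 2.31 and 2.87. In radiated skin it had left that range in part of the libraries of weeks 1 and 2 (means 2.10 ± 0.38 and 2.23 ± 0.50). The ratio of Itga6 to Itgb4, which pair in 1 receptor, was 0.29 ± 0.56 in radiated and 1.03 ± 0.15 in control skin of week 1 without overlap, and 1.13 ± 0.27 against 0.99 ± 0.06 in week 4.

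**Figure D2:**
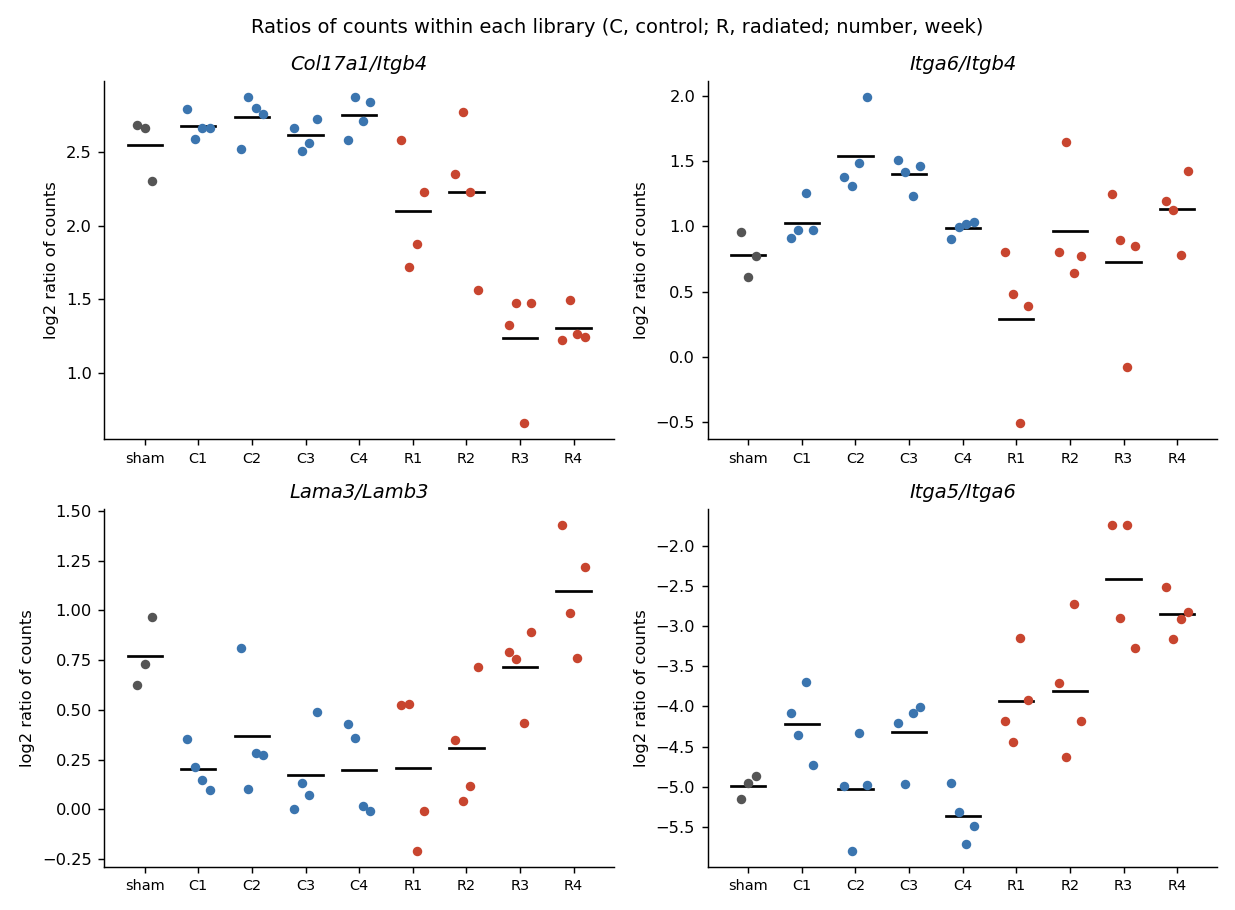
Log2 ratio of the counts of 2 genes within each library, by group, with points for libraries and bars for group means. Col17a1 against Itgb4 is narrow in sham and control skin and lower in R3 and R4, Lama3 against Lamb3 has its highest mean in R4 and overlaps sham skin there, Itga5 against Itga6 is highest in R3 and R4, and Itga6 against Itgb4 is lowest in R1.

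Of the 2 laminin-332 members, Lama3 rose in week 4 and Lamb3 did not pass in any week in the unpaired fit with all libraries. Lama3, the α3 chain, was at 187, 220, 204 and 288 CPM in radiated skin of week 4 and 135, 164, 162 and 130 in control skin. Every radiated library was above every control library. The difference was 0.61 (SE 0.14, edgeR adjusted p = 0.0053), a 1.53-fold higher level. Radiated week 4 also exceeded sham, at 137, 126 and 117 CPM, by 0.88 (SE 0.17, edgeR adjusted p = 0.00626). Against sham 3 of 9 members passed in radiated skin of week 4, Lama3, Col7a1 and Itga5, where 26.7% of all genes passed.

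No difference of Lama3 passed in weeks 1 to 3. Radiated week 1 had 136, 151, 124 and 148 CPM, radiated week 2 had 102, 129, 166 and 151, and radiated week 3 had 115, 97.0, 199 and 140. The 12 control libraries of these weeks lay between 96.1 and 146 CPM. All 3 weeks overlapped, with differences of 0.06, 0.19 and 0.33 that did not pass (edgeR adjusted p = 0.845, 0.696 and 0.268).

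Lamb3, the β3 chain, was at 69.6, 111, 120 and 124 CPM in radiated and 100, 128, 160 and 131 in control skin of week 4. The radiated value was the lower in 4 of 4 pairs, but the groups overlapped. Its difference of -0.29 (SE 0.19) did not pass (edgeR adjusted p = 0.244). With the replicate number as a block it was -0.30 and passed at the margin (edgeR adjusted p = 0.0487).

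Radiated week 3 of Lamb3 held 1 library far from the rest, with 66.6, 57.5, 147 and 75.4 CPM against 116, 91.4, 108 and 84.0 in control skin. The difference was -0.18 (SE 0.28, edgeR adjusted p = 0.664). Without radiated replicate 3 it was -0.56 and passed (edgeR adjusted p = 0.0315). With scaling by total count and all libraries it was 0.02. In weeks 1 and 2 the radiated libraries (94.3 to 149 and 80.3 to 154 CPM) and the control libraries (90.7 to 129 and 64.8 to 133 CPM) overlapped.

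Within libraries the log2 ratio of Lama3 to Lamb3 was 1.10 ± 0.29 in radiated and 0.20 ± 0.23 in control skin of week 4 (SD, n = 4 each), and the groups did not overlap. In sham skin it was 0.77 ± 0.18 (SD, n = 3).

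Col7a1, which keratinocytes and fibroblasts both make, rose late. In week 4 it was at 590, 480, 244 and 396 CPM in radiated and 200, 199, 242 and 202 in control skin. Radiated replicates 1, 2 and 4 were well above the controls and replicate 3 was just above the highest control. The difference was 1.03 (SE 0.23, edgeR adjusted p = 0.00439), a 2.04-fold higher level. Against sham (232, 164 and 162 CPM) it was 1.24 (SE 0.29, edgeR adjusted p = 0.0144), lost without sham replicate 2 (adjusted p = 0.0508). The fibroblast markers given above rose in the same libraries, 5 of 6 by the test, and their part in this rise was not tested.

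Col7a1 had a first, smaller separation in week 1, with 261, 343, 265 and 242 CPM in radiated and 183, 204, 170 and 241 in control skin. No radiated library was below a control library. Its difference of 0.49 (SE 0.16) did not pass (edgeR adjusted p = 0.258). In week 2 the groups overlapped (173, 171, 202 and 203 CPM against 160, 227, 190 and 148). In week 3 a single library set the sign: the values were 96.4, 131, 184 and 423 CPM against 150, 185, 170 and 183. With all 4 radiated libraries the difference was 0.30, and without replicate 4, the library with the high suprabasal markers, it was -0.30, neither of which passed (edgeR adjusted p = 0.598 and 0.326).

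**Figure D3:**
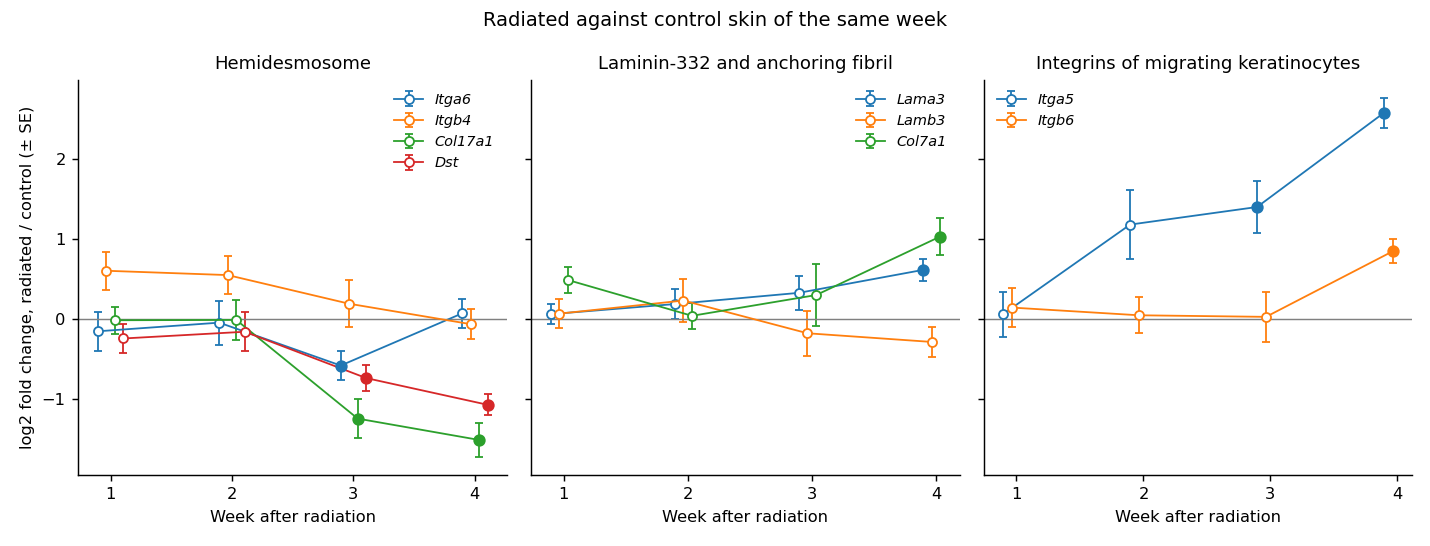
Log2 fold change of radiated against control skin by week with its SE (4 libraries a group), for the hemidesmosome genes, laminin-332 with Col7a1, and the integrins of migrating keratinocytes. Filled points passed an edgeR adjusted p under 0.05. Col17a1 and Dst run down to -1.51 and -1.07 in week 4, Itga5 runs up to 2.57, and Itgb4 and Lamb3 have no filled point.

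Itga5, the α chain of the fibronectin receptor α5β1, changed most of the 9. In week 4 it was at 73.5, 70.5, 90.4 and 119 CPM in radiated and 18.3, 15.1, 13.3 and 13.2 in control skin. The lowest radiated library was several times the highest control library. The difference was 2.57 (SE 0.19, edgeR adjusted p = 6.88e-06), or 5.94-fold higher. In week 3 the values were 136, 98.9, 164 and 54.5 CPM against 53.9, 29.5, 46.7 and 46.2, where radiated replicate 4 nearly met the highest control. That difference was 1.40 (SE 0.32, edgeR adjusted p = 0.0125).

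In week 2 Itga5 was at 38.0, 44.6, 119 and 53.8 CPM in radiated skin and 18.3, 15.4, 42.4 and 36.7 in control skin. The groups overlapped, but the radiated library was the higher in 4 of 4 pairs. The difference of 1.18 (SE 0.43) did not pass in the unpaired fit (edgeR adjusted p = 0.265) and passed with the replicate number as a block (1.15, edgeR adjusted p = 0.0223). Week 1 did not pass, with 24.0, 33.1, 41.1 and 38.3 CPM against 22.9, 30.6, 54.5 and 23.6 (0.06, SE 0.28). Over the 4 weeks the difference changed (edgeR F test, adjusted p = 0.00821), and without replicate number 2 the adjusted p was 0.0515.

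The level in control skin moved as well. The mean of Itga5 in radiated skin was 34.1, 63.8, 114 and 88.3 CPM in weeks 1 to 4, highest in week 3. In control skin it was 32.9, 28.2, 44.1 and 15.0 CPM, lowest in week 4. The step of the difference from week 3 to week 4 was 1.20 (SE 0.51, edgeR adjusted p = 0.276). Sham skin was lower than most, at 13.6, 11.4 and 11.2 CPM.

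Against sham, Itga5 was higher in radiated skin of all 4 weeks, by 1.49, 2.40, 3.28 and 2.92 (SE 0.23, 0.40, 0.38 and 0.22, edgeR adjusted p = 0.0145, 0.0163, 0.00462 and 0.000143). It was the only member that passed in radiated weeks 1, 2 and 3 against sham, where 1.75%, 5.06% and 18.2% of genes passed. The week 1 call was lost without sham replicate 2 or 3 or radiated replicate 3 or 4 (adjusted p 0.0579 to 0.0945), and the week 2 call without sham replicate 2 or 3 (0.0772 and 0.104).

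Control skin of the radiated mice also differed from sham in Itga5. It was higher by 1.43 in week 1 (SE 0.31, edgeR adjusted p = 0.0416) and by 1.85 in week 3 (SE 0.22, adjusted p = 0.00437). In these comparisons 1 of 9 and 2 of 9 members passed, the latter with Itga6, where 4.92% and 11.4% of genes did. The week 1 call was lost without sham replicate 2 or 3 or control replicate 2, 3 or 4. In the edgeR fit of the 2 groups no member passed in control weeks 2 and 4 against sham, though with DESeq2 3 and 6 did, where 10.5% and 9.83% of genes passed. In that edgeR fit 2.44% and 3.65% of genes passed and 3765 and 3947 had an unadjusted p under 0.05. In order of its means Itga5 ran from sham (12.1 ± 1.3 CPM) and control week 4 (15.0 ± 2.4), whose ranges overlapped, up to radiated week 4 (88.3 ± 22.2) and radiated week 3 (114 ± 47.6), whose ranges overlapped too.

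Fibroblasts, endothelium and leukocytes express Itga5 as well. Beside its rise, leukocyte and macrophage markers averaged 919 and 936 CPM in radiated skin of weeks 3 and 4 and 372 and 177 in control skin, with 3 and 5 of 5 markers higher by the test. Endothelial markers averaged 314 and 398 CPM against 172 and 191, with 2 and 5 of 5 higher. With the replicate block 0 and 4 of 5 endothelial and 4 and 5 of 5 leukocyte markers were higher in weeks 3 and 4. In week 1 the leukocyte markers were at 393 against 274 CPM with none higher by the test, and Itga5 did not pass. Against sham, 5 of 5 leukocyte markers were higher by the test in radiated skin of weeks 3 and 4, and 3 and 5 of 5 endothelial and 1 and 5 of 6 fibroblast markers. None of these passed in radiated weeks 1 and 2, where 1.75% and 5.06% of all genes did. Their median log2 differences from sham were 1.44 and 1.65 for leukocyte, 0.33 and 0.52 for endothelial and 0.96 and 0.97 for fibroblast markers. In control skin against sham, 2 of 5 endothelial and 2 of 6 fibroblast markers were higher in week 1, and 1 fibroblast marker in week 3. No leukocyte marker passed in control weeks 1 and 3, with medians of 0.61 and 1.16. The part of these cells was not tested. In bulk skin, with all these cells included, the log2 ratio of Itga5 to Itga6 was -2.85 ± 0.26 in radiated and -5.37 ± 0.32 in control skin of week 4.

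Itgb6, the epithelial β chain that pairs with αv, was at 32.6, 47.9, 39.5 and 40.4 CPM in radiated and 18.7, 23.4, 20.7 and 26.7 in control skin of week 4. The groups were clearly apart. The difference was 0.85 (SE 0.15, edgeR adjusted p = 0.00109), or 1.80-fold higher. Yet radiated week 4 lay at the level of sham (38.3, 29.3 and 38.7 CPM, difference 0.23, SE 0.17, edgeR adjusted p = 0.352). Control week 4 was the lowest of the 9 groups, below every sham library by a difference of -0.67 (SE 0.16) that did not pass (edgeR adjusted p = 0.0603).

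In weeks 1 to 3 Itgb6 overlapped between groups, with differences of 0.14, 0.05 and 0.03. Its highest radiated library was replicate 2 in week 1 (64.3 CPM, where the other 3 had 28.7 to 38.3) and replicate 4 in week 2 (89.5, where the others had 47.5 to 54.0). These were the libraries with the highest summed activated keratinocyte markers of their groups, 14330 CPM in a group otherwise between 359 and 4872, and 13710 in a group otherwise between 763 and 1315. In week 3 the order was different: replicate 2, with 6095 CPM of these markers, had 78.5 CPM of Itgb6, and replicate 3, with 14960, had 31.4.

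Over the 35 libraries, Col17a1 and Dst varied together (r = 0.84 of log2 CPM), as did Lama3 and Col7a1 (r = 0.68). Itga6 and Itgb4 did so less (r = 0.46), and Col17a1 and Itga5 went opposite ways (r = -0.47). These are descriptions over libraries that share groups. Among the 12533 genes whose mean reached 5 CPM, those most like Col17a1 included Sptlc3 and Ablim3 (r = 0.94 for each), and those most like Dst included Peli2 and Ank3 (r = 0.95 and 0.92). For Itga5 they were Adam8, Ppp1r18 and Plaur (r = 0.95, 0.95 and 0.93), the last the receptor of the protease urokinase. The best match was weaker for Itga6 (Serpinb2, then Ttc39b and Sfr1, r = 0.89 to 0.85), Itgb4 (Scap, Rin1 and Pdcd6ip, r = 0.85 to 0.78) and Itgb6 (Rrn3, Rrp12 and Hk2, r up to 0.81). It was weaker too for Col7a1 (Serpinb3b, Serpinb12 and Casp14, r up to 0.81), Lamb3 (Ptprg, Slc6a8 and C77080, r up to 0.80) and Lama3 (Dkk3, Ephb2 and Serpinb3b, r up to 0.79).

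Other genes of the adhesion machinery were taken from lists. Of 5 further hemidesmosome and laminin-332 partners, 1 rose and none fell in week 3. The shares of all genes were 13.6% in each direction in week 3 and 24.2% in each in week 4. The week 4 counts were 1 and 1, with a median of -0.10 in week 4 where the median of all genes was 0.02. Bmp1, the protease that trims laminin-332 and collagen VII chains, rose in both weeks (2.54 in week 4, SE 0.09, edgeR adjusted p = 2.2e-07). Fermt1, the keratinocyte kindlin that activates integrins, fell in week 4 (-0.50, SE 0.15, edgeR adjusted p = 0.0183). Plec, the other hemidesmosomal plakin, differed from control by -0.35 and -0.10 in weeks 3 and 4 and did not pass (edgeR adjusted p = 0.193 and 0.467). Itga3, whose product binds laminin-332 outside hemidesmosomes, did not pass either (-0.23 and 0.33, edgeR adjusted p = 0.534 and 0.335). With scaling by total count, Fermt1 passed upward in week 3 (0.75, edgeR adjusted p = 0.0268) and no longer passed in week 4 (-0.40, edgeR adjusted p = 0.0519).

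The basement membrane list held genes of both directions. Of 15 genes, 5 rose and 2 fell in week 3, where 27.2% of all genes passed. In week 4, 9 rose and 4 fell, where 48.4% of all genes passed, with a median of 1.26 in week 4. With the replicate block the week 3 counts were 3 and 3. Collagen IV showed both directions in week 4: Col4a2, which forms the α1α2 network found under most cells, rose by 2.56 (SE 0.17, edgeR adjusted p = 4.88e-06), and Col4a6, of the α5α6 network of epithelia, fell (-2.79, SE 0.29, edgeR adjusted p = 4.45e-05). Nid2, a linker of laminin and collagen IV, rose by 2.54 (SE 0.16, edgeR adjusted p = 3.78e-06). Frem2, which lies under the epidermis, fell (-2.57, SE 0.37, edgeR adjusted p = 0.000323).

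Of 8 other integrin subunits, 3 rose in week 3 and 4 in week 4, and none fell, where 13.6% and 24.2% of all genes rose. The others did not pass. Itgb1, the partner of α5, rose by 1.32 in week 4 (SE 0.11, edgeR adjusted p = 1.56e-05) and did not pass in week 3 (0.58, adjusted p = 0.114). Itgav, the partner of β6, did not pass in either week (0.07 and 0.26, edgeR adjusted p = 0.761 and 0.0589). Itgb3 and Itga9 rose by 1.76 (SE 0.17) and 1.58 (SE 0.10) in week 4 (edgeR adjusted p = 3.57e-05 and 4.08e-06).

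Of 11 ligands and regulators of integrins, 3 rose in week 3 and 9 in week 4, and none fell, against the same shares of all genes. Tnc, encoding tenascin-C, a ligand of αvβ6 and of α9β1, rose by 8.95 in week 4 (SE 0.30, edgeR adjusted p = 2.2e-07), from a mean of 7.57 CPM in control to 3718 CPM in radiated skin. Plaur rose by 3.30 (SE 0.19, edgeR adjusted p = 2.87e-06). Fn1, the fibronectin gene and so the ligand of α5β1, rose by 1.70 (SE 0.19, edgeR adjusted p = 7.52e-05), and in week 3 its difference was 0.51 (SE 0.41, adjusted p = 0.378). In weeks 1 and 2 no gene of these lists passed in the unpaired edgeR fit. With the replicate block 3 of the 11 ligands and regulators rose in week 2, where 2.85% of all genes did.

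**Figure D4:**
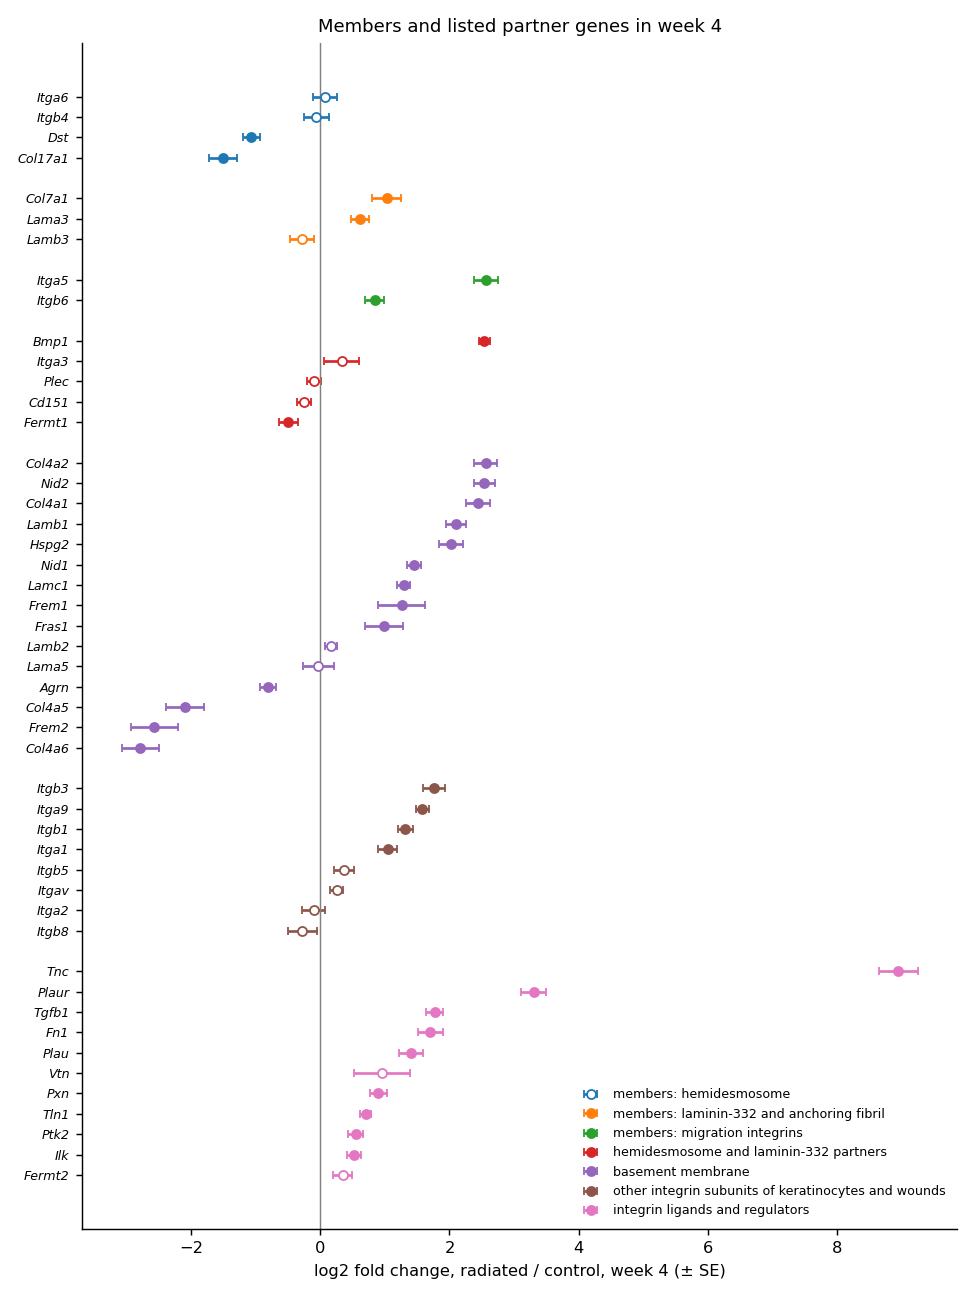
Log2 fold change of radiated against control skin in week 4 with its SE (4 libraries a group) for the 9 members and the listed genes, coloured by list, with filled points where the edgeR adjusted p was under 0.05. Col17a1 and Dst lie left of 0, most integrin ligands lie right of it, Tnc at 8.95 stands apart, and the basement membrane genes lie on both sides.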

How the data were processed

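Bulk RNA sequencing of 35 skin libraries from 19 mice was used. Reads were trimmed with Trim Galore 0.6.7 and quantified with kallisto 0.46.2 against mm10, per the submitters' processing notes. The transcriptome release and the step from transcripts to genes are not given in the sources used here. The authors deposited 1 estimated count per gene and library, not whole in 29.5% to 32.5% of cases, and these were rounded to whole numbers. Total counts ran from 17362853 to 28487885.

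The 9 genes, the gene lists and the tests were chosen with earlier results of these data known. Each comparison was fitted on its own 2 groups with edgeR 4.0.16 in R 4.3.3 (filterByExpr, TMM scaling, quasi-likelihood F test, Benjamini-Hochberg adjustment over all genes tested, threshold 0.05). The change over weeks was fitted on the 32 radiated and control libraries with week, radiation and their interaction, taking libraries as independent, and with the mouse as a block as an alternative. Scripts were tested on simulated data. Log2 CPM used a prior count of 2. Correlations used genes whose mean reached 5 CPM.

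Named genes were the 9 members, the 3 genes most like each, up to 4 genes of a list with the largest rise or fall, and Plec, Itgb1, Itga3, Itgav, Fn1, Krt5 and Krt14. Some genes that these rules or the lists would name are not reported here. Alternatives were RLE and total-count scaling, DESeq2 1.42.0, no filter, 1 fit over all libraries, the replicate number as a block, and each library left out. Same-numbered samples were taken to be 1 mouse, from the number of mice. Their deviations from the group means correlated by 0.071, 0.173, 0.053 and -0.02 on average in weeks 1 to 4, against -0.024, -0.057, -0.017 and 0.007 for other numbers. No 2 of the 51 library pairs within a group were alike within sampling noise (lowest reduced chi-square 19.96).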

Additional observations from a re-analysis of the deposited data

Results flagged for a closer look

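In groups of 4 libraries, 5 of the 72 member and group pairs held a library whose distance from its nearest neighbour was over Dixon's critical share of the group's range, where chance gives about 1 in 20. They were Itgb4 in control week 3 replicate 4 (lowest, 269.7 CPM), Lamb3 in control week 1 replicate 1 (lowest, 90.65), Col7a1 in control week 4 replicate 3 (highest, 242), Itgb6 in control week 1 replicate 1 (lowest, 28.48) and Itgb6 in radiated week 2 replicate 4 (highest, 89.51). Control week 1 replicate 1 was the lowest of its group for 8 of the 9 members, all but Col7a1.

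The radiated-minus-control difference changed over the weeks for 3 members by the edgeR F test of the interaction: Col17a1 (adjusted p = 0.00118), Itga5 (adjusted p = 0.00821) and Dst (adjusted p = 0.0318). For Col17a1 the step from week 2 to week 3 also passed (edgeR adjusted p = 0.02). Of all genes, 15.6% passed this F test and 6.9% passed this step.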

How the results depend on the processing

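Of the calls for single members in the fits of their levels, none turned its sign under any alternative. Of their fold changes with other scalings, filters, tools or fits 108 kept the call and 6 lost it (2 of them Itga5 in radiated and control week 1 against sham with the block), and with 1 library left out 124 kept it and 19 lost it. Of the F tests over weeks 14 kept the call and 1 lost it, and with a whole replicate number left out 7 kept it and 5 lost it. The steps between weeks are not in these numbers, and the step of Col17a1 was lost without replicate 2, 3 or 4. The losses of Dst, Itga5, Itga6 and Col7a1 are given beside those results. The cause of each change below was not tested. The members had at least 216 estimated counts in each library. The body site of the control skin is not stated, and the pairing rests on the labels' numbers and the number of mice.

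Counts of members that passed moved by over 1.5 times, or from or to 0, as follows. In radiated against control skin 1 member (Itga5) passed in week 2 with the replicate block, and 2 in week 3 with total-count scaling (3.7% and 30.2% of all genes). The block changed 2 more calls of members against control, Itga6 in week 3 (lost) and Lamb3 in week 4 (gained), and no other. Against sham, radiated weeks 1, 2 and 4 had 2, 4 and 5 members with DESeq2, where 6.44%, 12.5% and 26.9% of all genes passed. Smaller moves against sham were to 4 in radiated week 4 with total-count scaling (27.7%) and, at 1.5 times, to 3 in control week 3 with RLE (11.3%). With 1 fit over all libraries the counts for radiated weeks 1 to 4 were 2, 3, 2 and 5 (6.18%, 16.4%, 32.3% and 25.9% of all genes), without the filter 2 in week 2 (4.68%), and with the block 0 in week 1. Sham mice share only a number with the other mice, so a block against sham pairs unrelated animals and bears on no call. Control weeks 1, 2, 3 and 4 against sham had 3, 3, 4 and 6 with DESeq2, where 17.3%, 10.5%, 18.6% and 9.83% of all genes passed. Control weeks 1 and 2 had 2 and 2 with 1 fit (5.65% and 7.87% of all genes), control weeks 1, 2 and 4 had 2, 1 and 1 without the filter (4.61%, 2.98% and 3.19%), control week 4 had 1 with total-count scaling (3.57%), and control week 1 had 0 with the block. With a library left out the counts against sham ran from 0 to 2, 0 to 3 and 2 to 5 in radiated weeks 1, 2 and 4, and from 0 to 4, 0 to 2 and 0 to 5 in control weeks 1, 2 and 4. The lowest count was reached without sham replicate 2 in each of these. The share of all genes that passed is not given here for fits without a library or a replicate number. Their counts of members can therefore not be read against it. With the mouse as a block the F test over weeks passed for the same 3 members, Col17a1, Dst and Itga5 (edgeR adjusted p = 0.000681, 0.0144 and 0.00202), where 15.8% of all genes passed. With a replicate number left out it gave 1 to 3 members (1 without replicate 2, and Col7a1 among the 3 without replicate 4), and the step from week 2 to 3 gave 0 to 1.

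In the fits of levels, signs turned only for differences that had not passed. With total-count scaling the log2 difference from control became 0.13 for Col17a1 in week 1, 0.0596 for Col17a1 and 0.00861 for Itga6 in week 2, 0.0209 for Lamb3 in week 3 and 0.0265 for Itgb4 in week 4. Against sham it became -0.0241 for Lama3 and -0.127 for Col7a1 in radiated week 2, and -0.0709, -0.0624 and -0.0956 for Lama3, Col7a1 and Itgb6 in control week 1. In 1 fit Itgb6 in week 3 was at -0.000266. With the block, against sham, Col7a1 was at -0.0196 and -0.421 in radiated weeks 2 and 3 and 0.0487 in control week 2, and Lama3 at 0.00909 in control week 2. Against sham that block pairs unrelated animals, so these turns bear on no result. Relative to Krt5 and Krt14 in place of 5 basal markers, the sign turned in 19 of 36 pairs of member and week (2, 6, 7 and 4 in weeks 1 to 4). Of the 11 pairs whose radiated and control values did not overlap with 5 markers, 7 turned: week 4 became -0.57 for Itga6, -0.71 for Itgb4, -0.0011 for Lama3 and -0.90 for Lamb3, week 3 became -0.11 for Lama3 and -0.31 for Col7a1, and week 1 became -0.15 for Itgb4. In week 3 the other 5 that turned became -0.97 for Itga6, -0.30 for Itgb4, -1.12 for Dst, -0.65 for Lamb3 and -0.38 for Itgb6. In week 1 Col7a1 became -0.23. The 6 of week 2 became -0.45 for Itga6, -0.39 for Col17a1, -0.21 for Lama3, -0.15 for Lamb3, -0.33 for Col7a1 and -0.37 for Itgb6.

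With 1 library left out, these differences from control crossed 0. In week 1 the ranges were -0.111 to 0.0569 for Col17a1, -0.00313 to 0.12 for Lama3, -0.0449 to 0.169 for Lamb3, -0.076 to 0.414 for Itga5 and -0.16 to 0.28 for Itgb6. In week 2 they were -0.20 to 0.14 for Itga6, -0.17 to 0.12 for Col17a1, -0.298 to 0.0184 for Dst, -0.0505 to 0.162 for Col7a1 and -0.21 to 0.14 for Itgb6. In week 3 they were -0.13 to 0.40 for Itgb4, -0.30 to 0.53 for Col7a1 and -0.26 to 0.26 for Itgb6, and in week 4 -0.0878 to 0.226 for Itga6 and -0.22 to 0.10 for Itgb4. Against sham the ranges in radiated skin were -0.10 to 0.34 for Itgb6 in week 1, -0.0765 to 0.193 for Col7a1 in week 2, and -0.0231 to 0.309, -0.0833 to 0.438 and -0.40 to 0.45 for Lama3, Lamb3 and Col7a1 in week 3. In control skin they were -0.0139 to 0.283 for Col7a1 and -0.0517 to 0.175 for Itgb6 in week 1, -0.175 to 0.0114 for Lama3 and -0.17 to 0.16 for Col7a1 in week 2, and -0.214 to 0.0659 for Col7a1 in week 3.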
